A study of Mus musculus with 14 samples.

Results

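The regions described here carried a peak of the histone variant H2A.Z in adult mouse intestinal stem cells and enterocytes, and none was listed at these places in the embryonic intestinal epithelium. They were chosen by which libraries had a peak. Overlapping or touching peaks of all 8 libraries were merged into union regions, and autosomal regions under 3000 bp were kept if both stem cell libraries and enterocyte replicate 2 had a peak and no embryonic library did. This gave 2709 members among 43299 autosomal regions under that width (6.26%) and among 45028 regions in all. The difference between adult and embryonic libraries is therefore set by the choice, and it is described without a test. Enterocyte replicate 1 was not used for the choice, and whether it had a peak in the members is reported as a separate readout. It shares its input with enterocyte replicate 2, and its peaks took part in the merging.

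H2A.Z chromatin immunoprecipitation followed by sequencing was carried out on 2 libraries of each of 4 groups, called biological duplicates by the series text. The embryonic groups were small intestinal epithelium of E12.5 and E14.5 embryos, sorted as EpCAM+ CD31- CD45- DAPI- cells. The adult groups came from P60 Lgr5EGFP-Cre-ERT males aged 2 months: intestinal stem cells (ISC) sorted for high Lgr5-EGFP, and enterocytes sorted with the same surface markers as the embryonic cells. All 4 groups had the mixed C57BL/6 CD1 background. The gate for enterocytes, as the labels give it, holds no marker that parts them from other epithelial cells. The labels do not give the sex of the embryos, nor whether animals were pooled.

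H2A.Z is a variant of the core histone H2A that the SRCAP and p400 remodelling complexes exchange into nucleosomes. It marks nucleosomes beside active promoters and enhancers, and in embryonic stem cells also promoters bound by Polycomb complexes. Lgr5+ ISC divide at the crypt base and replenish the epithelium, whereas enterocytes are the non-dividing absorptive cells of the villus. The gut tube at E12.5 has no villi yet, and crypts with Lgr5+ stem cells at their base form after birth.

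The lists differed in length and in peak shape. The libraries held 27835048 to 41274126 tags and 6136 to 32131 peaks. The 3 adult libraries that chose the members listed 26925, 32131 and 20483 peaks, and E12.5 replicates 1 and 2 and E14.5 replicate 1 listed 26059, 22177 and 17288. Enterocyte replicate 1 (14256 peaks) and E14.5 replicate 2 (6136 peaks) stood apart, with an estimated fragment size of 67 and 71 bp, close to the tag length of 68 bp, against 191 to 247 bp in the others. Without E14.5 replicate 2 the rule chose 2713 regions. Both ISC libraries shared 1 input and both enterocyte libraries shared another, whereas each embryonic library had its own. No annotation or genome of the build mm9 was used here, so members are given by position and not by gene, and their sequences are not printed. The sorting markers Epcam, Pecam1, Ptprc and Lgr5 were not looked up in the lists for the same reason, so the labelled cell types were not checked against marker genes.

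Gains were listed more often than losses. With 3 libraries on each side, 2713 regions (6.27%) had a peak in both ISC libraries and enterocyte replicate 2 and in none of the E12.5 libraries and E14.5 replicate 1. The reverse held in 818 regions (1.89%). All 4 embryonic libraries and none of those 3 adult libraries had a peak in 87 regions (0.201%). The adult lists of this comparison are the longer ones in sum. With each library limited to its 6136 strongest peaks, 370 regions met the rule and 242 its reverse over all 4 embryonic libraries. Of the 370, 363 overlapped an embryonic peak of the full lists, so they differed in peak rank and not in whether a peak was listed. The 242 were not checked in this way. On the full lists the counts were 2709 and 87. The 87 need a peak in E14.5 replicate 2, the shortest list, and the count was 818 where that library was not asked for. The part of list length in these counts was not tested further. Among the 16061 autosomal regions under 3000 bp with a peak in both ISC libraries and enterocyte replicate 2, 16.9% (95% Wilson interval 16.3 to 17.5) were members, and the remaining regions had a peak in at least 1 embryonic library.

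The members were mostly weak peaks. Fold enrichment here is the ChIP signal over the local background as the authors' peak caller computed it, taken from the strongest peak of a library in the region, and it is compared only within a list. The median fold of the members was 2.88 in ISC replicate 1, 3.08 in ISC replicate 2 and 3.28 in enterocyte replicate 2. Over the whole lists the medians were 3.27, 3.28 and 3.70. The median member thus lay below the middle of each list. Its percentile was 33.8 and 41.1 in ISC replicates 1 and 2 and 29.4 in enterocyte replicate 2. Members among the highest 10% of a list numbered 10, 51 and 18 in these libraries. Regions with peaks in the same 3 adult libraries and in all 4 embryonic libraries, of which there were 4342, had a median percentile of 84.3 in ISC replicate 1, 86.7 in ISC replicate 2 and 77.5 in enterocyte replicate 2.

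**Figure D1:**
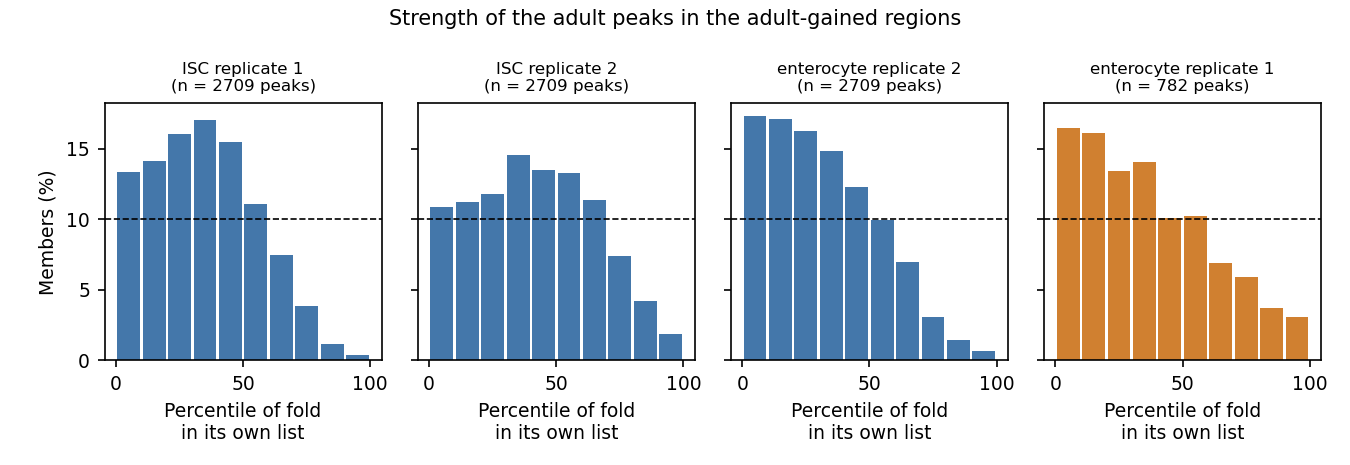
Percentile of peak fold within the list of each adult library (x axis) for the adult-gained regions, as the share of members in each bin of 10 percentiles (y axis); the dashed line at 10% is what an even spread over the list would give. In all 4 libraries the bars fall towards the strongest peaks, and enterocyte replicate 1, in orange, was not used to choose the regions.

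The statistical evidence for the peaks was low as well, beside regions that also had embryonic peaks. The median −log10 q of the members was 3.63 in ISC replicate 1, 3.94 in ISC replicate 2 and 2.70 in enterocyte replicate 2. In the regions with all 4 embryonic libraries it was 15.7, 14.3 and 7.24 in the same libraries. All 3 libraries reached a −log10 q of 3 in 738 members, a value of 5 in 147 members and a value of 10 in 3 members. Where a region was strong in the adult cells, an embryonic peak was usually listed as well. Ranked by fold in ISC replicate 1, the weakest quartile of the 16061 regions held 1783 members, or 44.4% (42.9 to 45.9) of its regions. The second quartile held 17.4% (16.3 to 18.6), the third 4.88% (4.26 to 5.59) and the strongest 0.747% (0.524 to 1.06). The strongest quartile by fold in ISC replicate 2 held 2.27% (1.85 to 2.77) and that by enterocyte replicate 2 held 1.59% (1.25 to 2.03). An embryonic peak that is not listed does not show that H2A.Z was absent.

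**Figure D2:**
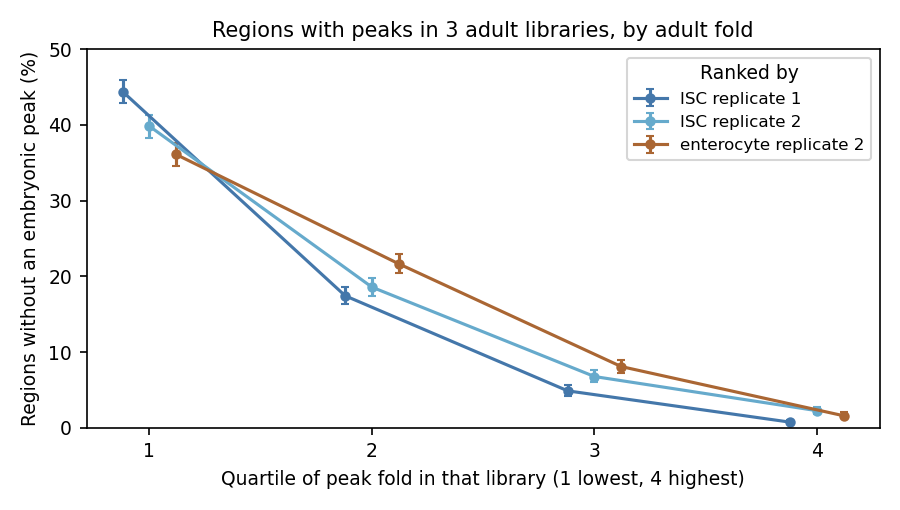
Share of regions without an embryonic peak (y axis, %, with 95% Wilson intervals) among the 16061 regions with a peak in both ISC libraries and enterocyte replicate 2, by quartile of peak fold in each of these libraries (x axis). The share falls from 36.1 to 44.4% in the weakest quartile to 0.747 to 2.27% in the strongest.

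Lists of equal length gave fewer regions, nearly all with an embryonic peak in the full lists. With each library limited to its 6136 strongest peaks by p, as many as the shortest list holds, 370 regions met the rule. Of these, 363 overlapped an embryonic peak of the full lists and 7 did not. The reverse of the rule, all 4 embryonic libraries and none of the 3 adult ones, then gave 242 regions.

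Regions that just missed the rule had mostly weak embryonic peaks. A peak in both ISC libraries, in enterocyte replicate 2 and in a single embryonic library was listed in 1136 regions. That library was E12.5 replicate 1 in 787 of them (69.3%), E14.5 replicate 1 in 213, E12.5 replicate 2 in 132 and E14.5 replicate 2 in 4. Their embryonic peaks had a median fold of 2.97 in E12.5 replicate 1, against 3.57 over its whole list. They lay at a median percentile of 22.4 there, 20.9 in E12.5 replicate 2, 37.2 in E14.5 replicate 1 and, over 4 peaks only, 79.6 in E14.5 replicate 2. E12.5 replicate 1 has the longest of the embryonic lists, and without it 3500 regions met the rule. On the adult side, 3094 regions without any embryonic peak had both ISC libraries and lacked enterocyte replicate 2. Another 643 lacked only ISC replicate 1, and 440 lacked only ISC replicate 2.

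Enterocyte replicate 1 listed a peak in 782 of the 2709 members, or 28.9% (27.2 to 30.6). Over all autosomal regions under 3000 bp the share was 25% (10841 of 43299). It was 55.9% in regions with a peak in enterocyte replicate 2 and 0.678% in regions without one. The members' share thus lay near that of all regions and below that of regions with an enterocyte replicate 2 peak. Among the 3094 regions of ISC alone, with no peak in enterocyte replicate 2 or the embryo, it was 1.00% (0.707 to 1.42). Among 1474 regions with enterocyte replicate 2 as the sole adult library of the rule and no embryonic peak, it was 5.97% (4.87 to 7.30). These intervals cover counting error over regions only; neighbouring regions are not independent, and 1 library allows no test between samples.

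More embryonic libraries went with more peaks in enterocyte replicate 1. Among regions with both ISC libraries and enterocyte replicate 2, its share was 38.1% (35.3 to 41.0) with 1 embryonic library, 51.0% (48.4 to 53.5) with 2, 73.2% (72.1 to 74.2) with 3 and 86.4% (85.3 to 87.4) with 4. The strength of the peak in enterocyte replicate 2 rose along the same series, from a median fold of 3.28 in the members to 4.55 with 4 embryonic libraries.

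At similar strength in enterocyte replicate 2, the order of these classes was kept. In the members, the share with a peak in enterocyte replicate 1 was 8.11% (6.29 to 10.4) in the quartile of lowest fold in enterocyte replicate 2, up to 3.02. It was 18.8% (16.0 to 21.9) in the second, 28.7% (25.4 to 32.2) in the third. In the highest, over 3.64, it was 406 of 677 members (56.2 to 63.6%). Between a fold of 3.28 and 3.64, regions with 1 or 2 embryonic libraries reached 40.1% (36.4 to 43.9) and regions with 4 reached 57.2% (52.2 to 62.0). Over 3.64 these were 72.9% (70.2 to 75.4) and 95.5% (94.8 to 96.1). In the lower 2 quartiles the intervals of the members overlapped those of regions with 1 or 2 embryonic libraries. Regions with enterocyte replicate 2 and neither ISC library were below the members in every quartile, at 2.48% (1.51 to 4.06) in the lowest and 18.3% (23 of 126) in the highest. The highest quartile has no upper bound, so regions of different classes can still differ in strength within it. The classes were not matched in width or in strength in ISC. The median width was 937 bp in the members and 1684.5 bp with 4 embryonic libraries, and the median percentile in ISC replicate 1 was 33.8 and 84.3.

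**Figure D3:**
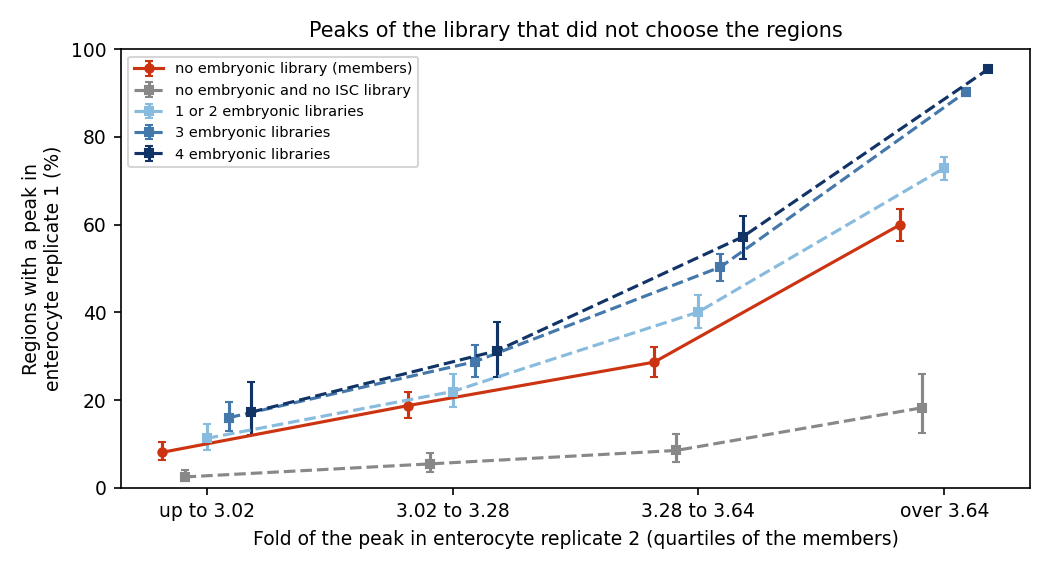
Share of regions with a peak in enterocyte replicate 1 (y axis, %, with 95% Wilson intervals) by fold of the peak in enterocyte replicate 2 (x axis, divided at the quartiles of the members), for the members and for regions with other embryonic or ISC peaks. The members, in red, climb from 8.11% to 406 of 677 and lie between regions without ISC peaks and regions with embryonic ones.

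The share also differed with strength in stem cells. The share of members with a peak in enterocyte replicate 1 was 18.6% (15.8 to 21.7) in the quartile of lowest fold in ISC replicate 1 and 43.7% (40.0 to 47.5) in the highest. By ISC replicate 2 these were 22.3% (19.3 to 25.6) and 40.0% (36.4 to 43.8). By width of the region they were 17.5% (14.8 to 20.5) in the narrowest quartile and 37.4% (33.8 to 41.1) in the widest. When all 3 adult peaks had a −log10 q of at least 3, enterocyte replicate 1 had a peak in 58.1% (429 of 738), and with at least 5 in 85.7% (126 of 147).

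Members with and without a peak in enterocyte replicate 1 differed in the other libraries as well. The 782 members with it had a median fold of 3.04 in ISC replicate 1, 3.26 in ISC replicate 2 and 3.68 in enterocyte replicate 2. In the 1927 without it, the medians were 2.82, 3.05 and 3.17. The peak of enterocyte replicate 2 was 752.5 bp wide in the median of the former and 448 bp in the latter. Within the list of enterocyte replicate 1, the members' peaks were weak as well, with a median fold of 4.10 against 4.29 over the list, a median percentile of 32.4 and a median −log10 q of 1.96.

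The rule asks for peaks of both cell types in 1 merged region, so their overlap is largely fixed by the choice and the geometry is given as a description. The members had a median width of 937 bp (quartiles 666 and 1311) and covered 2.86 Mb in sum. The median was 775 bp for all autosomal regions under 3000 bp, which include regions with peaks of fewer libraries. Regions with the same 3 adult libraries were wider than the members, at 1084.5 bp with 1 embryonic library and 1684.5 bp with 4. In 2667 members (98.4%) the strongest peaks of both ISC libraries and of enterocyte replicate 2 had bases in common, with a median shared core of 366 bp, or 45.5% of the width of the region. Regions with all 4 embryonic libraries shared a core in 4340 of 4342 cases, over a median of 69.9% of the width. In the other 42 members the peaks were joined only through a chain of overlaps. The centres of the peaks of ISC replicate 1 lay a median of 77.5 bp from those of ISC replicate 2 and 98 bp from those of enterocyte replicate 2. Of the 782 peaks of enterocyte replicate 1, 769 (98.3%) overlapped the peak of enterocyte replicate 2 and 610 (78.0%) lay inside it. In the regions with all 4 embryonic libraries these were 3747 of 3751 and 85.3%, and here too the merging sets most of the overlap.

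The ISC peaks were the wider ones. The median width was 678 bp in ISC replicate 1, 706 bp in ISC replicate 2, 523 bp in enterocyte replicate 2 and 239 bp in enterocyte replicate 1. The ISC peak exceeded that of enterocyte replicate 2 in 1851 members (68.3%) for ISC replicate 1 and in 1894 (69.9%) for ISC replicate 2. This was not particular to the members, since in regions with all 4 embryonic libraries the ISC peaks were wider in 76.1% and 80.9%. The estimated fragment sizes, 247 and 228 bp in ISC and 196 bp in enterocyte replicate 2, move with these widths, and their part in them was not tested.

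The libraries of a cell type ordered the members more alike than those of different cell types. Across the 2709 members, Spearman's rho of fold was 0.66 between the ISC libraries, which share an input, and 0.23 and 0.17 between ISC replicates 1 and 2 and enterocyte replicate 2. Between the enterocyte libraries, which also share an input, it was 0.35 over the 782 members with both peaks. Over these 782, ISC replicates 1 and 2 gave 0.15 and 0.13 with enterocyte replicate 1. In the regions with all 4 embryonic libraries the same pairs gave, in this order, 0.84, 0.53, 0.41, 0.64, 0.27 and 0.21. Libraries of a cell type share an input, so cell type and input cannot be told apart here. These are correlations across regions, which are no replicates, and folds of the members span a narrow range.

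The strongest members by the mean percentile over the 4 adult libraries were single regions on 6 chromosomes (coordinates on mm9). The first lay at chr6:115742104-115743437 and had a fold of 6.09 and 5.54 in ISC replicates 1 and 2 and of 4.82 and 6.18 in enterocyte replicates 1 and 2. The nearest region with an embryonic peak was 14593 bp away. The second, at chr7:52241185-52243324, ranked higher in the enterocyte lists, at percentiles 99.9 and 97.4 of enterocyte replicates 1 and 2, than in the ISC lists, at 76.7 and 73.6 of ISC replicates 1 and 2. Its fold of 5.86 in enterocyte replicate 1 was the highest of all members there. The third, at chr2:69641026-69642053, had 4.97 and 5.91 in ISC replicates 1 and 2 and 4.55 and 5.05 in enterocyte replicates 1 and 2. The fourth lay at chr17:36342208-36343414 and the fifth at chr4:125904299-125905345. They had 5.41 and 4.49 in ISC replicate 1 and 4.75 and 5.58 in enterocyte replicate 2.

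Members strong in 1 cell type were not always strong in the other. The region at chr2:30555489-30556103 had a fold at percentile 98.9 in enterocyte replicate 2 and 96.9 in enterocyte replicate 1, and at 66.8 and 67.7 in ISC replicates 1 and 2. Another at chr2:29921280-29923095 was alike, with percentiles of 93.6 and 97.0 in enterocyte replicates 2 and 1 and of 65.0 and 74.0 in ISC. The opposite held at chr6:121222062-121222773, with percentiles of 91.5 and 99.3 in ISC replicates 1 and 2 and of 78.7 and 61.7 in enterocyte replicates 2 and 1. Both chr17:50609272-50610906 and chr14:56492702-56493327 were among the 10 highest as well. The former had the second highest fold of the members in enterocyte replicate 1, 5.78, but a fold of 4.00 in enterocyte replicate 2. These lay at percentiles 99.8 and 60.9 of their lists, so replicates of 1 cell type could differ as widely as the cell types in these examples. Of the next members by fold in enterocyte replicate 1, chr1:9933602-9934887 had 5.50 and chr11:59927788-59929431 had 5.36. The last of the 5, chr17:84580046-84581702, had 5.29, and a fold of 3.01 and 3.30 in ISC replicates 1 and 2.

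Some members without a peak in enterocyte replicate 1 were strong elsewhere. The highest of them by mean percentile lay at chr7:121720068-121720837, with a fold of 4.21 and 6.10 in ISC replicates 1 and 2 and 4.40 in enterocyte replicate 2. It was followed by chr16:49817892-49819453, with 4.41, 4.77 and 4.37, and by chr10:61774269-61774888, with 4.80, 5.35 and 3.58. The 3.58 lay at percentile 44.6 of enterocyte replicate 2. The remaining 2 of the 5 named, in the same order of libraries, were chr3:89588997-89589529, with 3.77, 3.88 and 5.06, and chr14:51676661-51677830, with 3.98, 5.16 and 3.89.

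The regions named on each side of the width limit had overlapping folds in ISC replicate 1. The widest members were chr19:46606625-46609596 with 2972 bp, chr8:85723272-85726235 with 2964 bp and chr2:180024072-180027028 with 2957 bp. The narrowest regions beyond it that met the rest of the rule were chr14:28478735-28481750 with 3016 bp and 2 regions of 3022 bp, chr11:100562553-100565574 and chr19:38317046-38320067. Their folds in ISC replicate 1 were 3.22, 3.87 and 2.45 inside the limit and 2.80, 2.43 and 3.06 beyond it. Peaks in enterocyte replicate 1 were more frequent beyond the limit. They were listed in 22 of 38 such autosomal regions, against 28.9% of the members and 37.4% of their widest quartile.

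The members were spread over all 19 autosomes. They made up between 4.88% (3.94 to 6.01) of the regions of chromosome 15, 82 of 1682, and 7.09% (6.09 to 8.24) of those of chromosome 13, 155 of 2186. Among the other chromosomes, the intervals included the share of 6.26% over all autosomes. The share of members with a peak in enterocyte replicate 1 ran from 19.3% on chromosome 18 (17 of 88) to 40.9% on chromosome 17 (47 of 115).

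**Figure D4:**
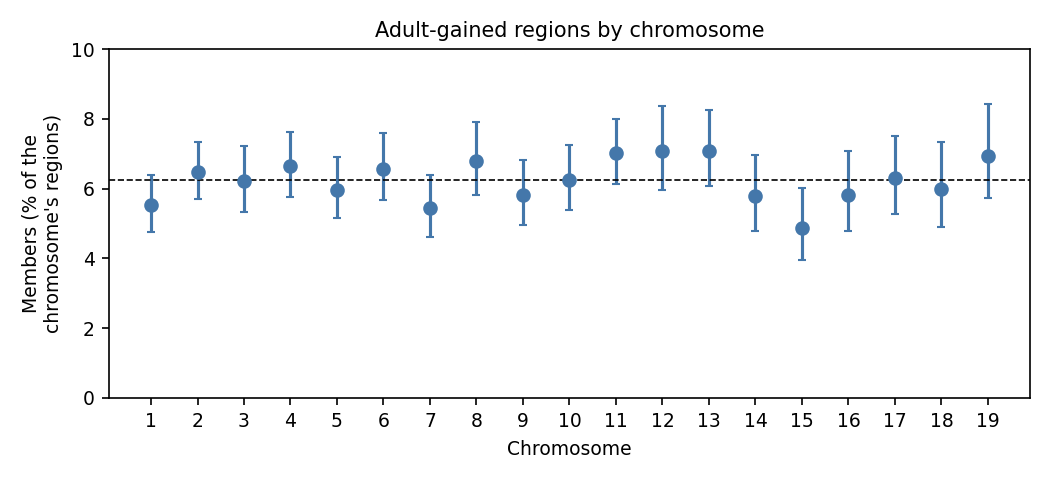
Adult-gained regions as a share of the autosomal regions under 3000 bp of each chromosome (y axis, %, with 95% Wilson intervals); the dashed line is the share over all autosomes, 6.26%. The intervals of all chromosomes but chromosome 15, at 4.88%, include that line.

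By the rule no member holds a listed embryonic peak, and distances to the nearest listed one are given as a description. The nearest region with an embryonic peak was a median of 12695 bp away (quartiles 5158 and 30619). It lay within 1000 bp of 61 members (2.25%), within 5000 bp of 658 (24.3%) and within 50000 bp of 2317 (85.5%). The regions of ISC alone lay at a similar distance, with a median of 14811 bp and 22.5% within 5000 bp. So had those of enterocyte replicate 2 without ISC, with 12392 bp and 27.0%. The median fold of the members in ISC replicate 1 was 2.89 within 5000 bp of an embryonic peak and 2.86 beyond 50000 bp. A peak in enterocyte replicate 1 was listed in 30.7% (27.3 to 34.3) of the former and in 24.0% (20.0 to 28.4) of the latter.

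Members were a median of 113597 bp from the next member. With gaps of up to 50 kb bridged, 1813 members (66.9%) stood alone and 24 clusters held 4 or more members, 111 in all (4.10%). A peak in enterocyte replicate 1 was listed in 46 of these 111 members (41.4%), against 28.9% of all members, and the difference was not tested. In 10 of the 24 clusters no region with an embryonic peak lay between the first and the last member.

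The largest cluster held 7 members over 119 kb at chr2:91147814-91266998. It had 8 other regions, none with an embryonic peak. Of these, 3 had a peak in both ISC libraries and no enterocyte peak, and the rest had a peak in a single adult library each, mostly of ISC. Over the members of this cluster, fold ran from 2.32 to 3.79 in ISC replicate 1 and from 2.74 to 3.61 in enterocyte replicate 2. Enterocyte replicate 1 had a peak in 3 of the members. A cluster of 6 members over 82.8 kb at chr3:51810331-51893097 was also free of embryonic peaks. Its members had a fold of 2.66 to 4.22 in ISC replicate 1 and of 3.05 to 4.88 in enterocyte replicate 2, and 4 of them had a peak in enterocyte replicate 1. The clusters at chr17:84338233-84438274 and chr7:85948891-86059097 held 6 members each, between 8 and 4 regions with an embryonic peak. Here the members stood among regions with a listed embryonic peak, some of which had no adult peak. Fold in enterocyte replicate 2 ran from 3.06 to 4.99 over the members on chromosome 17 and from 3.22 to 3.73 on chromosome 7.

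**Figure D5:**
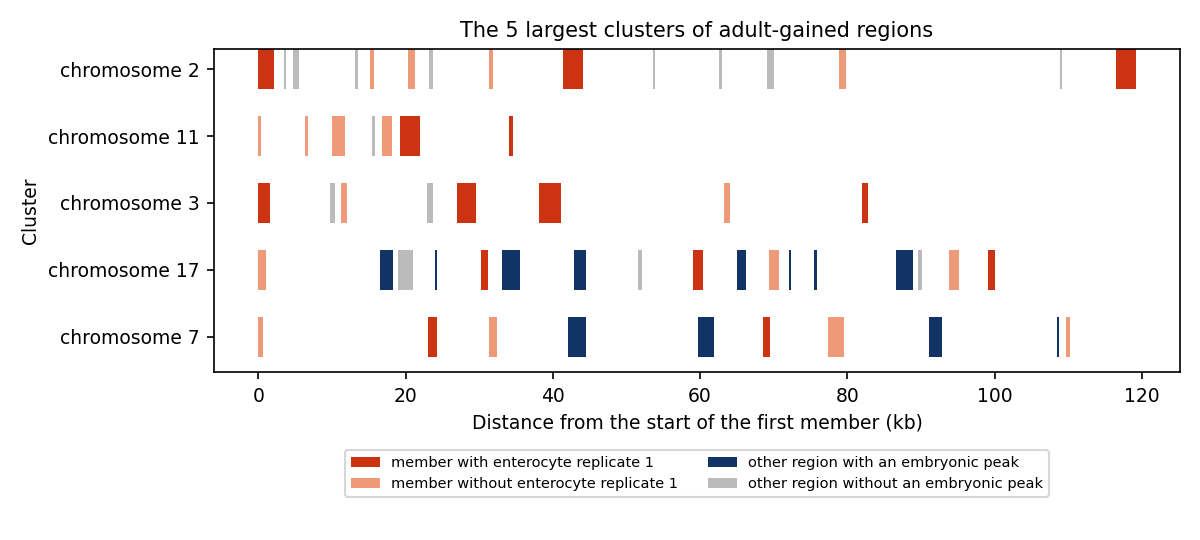
Layout of the 5 largest clusters of adult-gained regions, 1 row for each, by distance from the start of the first member (x axis, kb); boxes are drawn to scale along x and coloured by whether they are members and whether they or other regions have the peak named in the key. The rows of chromosomes 2, 11 and 3 show no region with an embryonic peak, whereas those of chromosomes 17 and 7 hold 8 and 4.

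The remaining cluster, of 6 members over 34.5 kb at chr11:3025622-3060155, was of another kind. In 5 of its members the fold was under 2 in all 3 adult libraries, 1.29 to 1.49 in ISC replicate 1 and 1.36 to 1.40 in enterocyte replicate 2. No other member had such values. Their coverage was the highest of all members, with a pileup (ChIP coverage at the peak) of 187 to 277 in ISC replicate 1, 183 to 255 in ISC replicate 2 and 123 to 155 in enterocyte replicate 2. The other members reached at most 64.8, 55.8 and 39.6 in these libraries, with medians of 21.8 and 22.0 in the ISC libraries. Enterocyte replicate 1 had a peak in 2 of the 5, with a fold of 1.62 and 1.79. Since fold is taken over the local background, the background there was high as well, and its source was not tested.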

How the data were processed

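Per the file headers, the authors ran the broad mode of MACS 2.1.0.20140616 on single H2A.Z libraries against input DNA, with q limited to 0.05 and the model built from folds between 10 and 30. The lists also hold 112 to 1369 peaks each above that q. The submitters' processing notes name bcl2fastq 1.8.4, Bowtie 1.1.2, SAMtools 1.2 and mm9. Pileup is a deposited coverage signal, the deposited −log10 p and −log10 q measure evidence against the input, and the deposited fold enrichment is a ratio to local background. All belong to single peaks and rank peaks within a list; values of different lists stand side by side as descriptions. Per the labels, fragments of 350 to 700 bp were aimed for.

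Peaks were merged with Python 3.11.15, pandas 2.3.3, NumPy 2.4.6 and SciPy 1.17.1, and the merging was tested on simulated data. A library had a region if any of its peaks lay in it. Percentiles count the peaks of a list with at most that fold. Wilson intervals (95%) of shares cover counting error over regions alone. The 6 inputs entered through the calling alone. The last peak on chromosome 1 ends at 197068299, beyond the last gene of GRCm38.p6 there (195291439), so the reference tables of that build were not used for positions. Gene lists, gene positions, base composition and motifs had been planned and were not run.

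The members and lists were chosen with earlier results of these data known. Named regions are the 10 members with the highest mean percentile over the 4 adult libraries, the 5 highest by fold in enterocyte replicate 1, the 5 highest without a peak there, the 5 largest clusters, and 3 regions on each side of the width limit. The members of low fold were singled out after their values had been seen. Alternatives covered the libraries of the rule, the q threshold, list length, merging, coverage, width, chromosomes and cluster gaps.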

Additional observations from a re-analysis of the deposited data

How the results depend on the processing

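No paired analysis was possible because the results come from no test. Leaving out 1 library at a time gave 811 to 3500 members; the lowest count came from enterocyte replicate 1 in the place of replicate 2, which listed fewer peaks. The share of members with a peak in enterocyte replicate 1 was then 25.1 to 31.1%. With a −log10 q of at least 10 asked of every library, 376 regions met the rule. The embryonic lists were cut as well, so weaker embryonic peaks no longer kept a region out. Asked of adult libraries alone, with the full embryonic lists, the threshold left 3 members. In both settings the share with enterocyte replicate 1 was 0% by construction, since its highest −log10 q is 7.92. With that library unfiltered, all 3 members of the adult threshold had a peak in it (100%). The 6136 strongest peaks per library gave 370 regions and 71.1%, with an embryonic peak of the full lists in 363 of the 370. Peaks covering at least 50% of the region gave 1418 members and 37.2%. Thresholds on the −log10 q of the weakest adult peak, chosen after seeing the data, gave 738 and 58.1% at 3 and 147 and 85.7% at 5. Merging within 500 bp, a limit of 2000 bp, no width limit and the X and Y chromosomes kept the count within 2535 to 2747 and the share within 28.0 to 29.3%.

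The median fold in ISC replicate 1, ISC replicate 2 and enterocyte replicate 2 was 4.49, 4.30 and 5.91 in the 3 members of −log10 q at least 10, 3.04, 3.26 and 3.68 with a peak in enterocyte replicate 1, and 2.82, 3.05 and 3.17 without. The median widths in the same order were 1284, 1300 and 1187 bp, 854, 829.5 and 752.5 bp, and 621, 670 and 448 bp. In regions under 2000 bp they were 653 and 682 bp in ISC. Clusters of 4 or more numbered 7 with gaps of up to 20 kb and 56 with 100 kb. Alternatives for gene positions, promoter windows and sequence were not run. Enterocyte replicate 1 gives no share where it replaces replicate 2.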

Other observations

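Regions outside the autosomes or beyond the width limit also met the rest of the rule. Chromosome X held 21 among 869 regions under 3000 bp, or 2.42% (1.59 to 3.67), below the 6.26% of the autosomes. Of these 21, 6 had a peak in enterocyte replicate 1. Chromosome Y held 4 among 22, or 18.2% (7.31 to 38.5), above the share of the autosomes, and none of the 4 had a peak in enterocyte replicate 1. The adult cells came from males and the sex of the embryos is not given, so the shares on the sex chromosomes and the stages cannot be told apart. On the autosomes, 38 regions of 3000 bp or more met the rule, with a median width of 3431 bp and a largest width of 6520 bp, and 22 of them had a peak in enterocyte replicate 1.

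Of the 24 clusters, 3 lay within chr13:21807133-23855938, with 4 members each. The pair at chr13:23621748-23644153 and chr13:23837567-23855938 spanned 22.4 and 18.4 kb and held no other region at all, and 3 and 2 of their members had a peak in enterocyte replicate 1. The third, at chr13:21807133-21879846, had 4 other regions, 2 of them with an embryonic peak. These clusters were singled out after their positions had been seen.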
